A study of Mus musculus with 4 samples.

Results

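Genes that encode Wnt ligands, their receptors, their secreted and cytoplasmic modulators and their classic target genes were followed in ATDC5 cells, a mouse chondrogenic line, after knockdown of Chadl (chondroadherin-like, a leucine-rich repeat protein of cartilage). Members were chosen by name: every probe set annotated with exactly 1 gene symbol that begins with Wnt, Fzd, Sfrp, Dkk or Rspo and a digit, plus Lrp5, Lrp6, Wif1, Ror1, Ror2, Axin1, Axin2, Lef1, Ctnnb1, Sost, Nkd1 and Nkd2. This gave 89 of 45037 probe sets, which stand for 53 of 17097 genes. Tcf7, also in the rule, matched no probe set by this annotation and was not analysed here. The name rule also took Fzd10os, a transcript from the strand opposite Fzd10 that encodes no receptor. A further 3 probe sets that name Sfrp1 together with another gene were left out.

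There were 2 Chadl knockdown arrays and 2 control arrays, each an Affymetrix mouse array read as log2 signal per probe set. Both groups were ATDC5 cells transfected by lipid reagent with a 27-mer RNA duplex at 30 nM, which went into differentiation medium after 16 h, and RNA was taken after 5 days of differentiation. The knockdown cells received a duplex against Chadl, and the control cells received a universal scrambled duplex. The labels report 1 effective duplex, so loss of Chadl and any other effect of that sequence cannot be told apart. The strand the labels give for it, shown because it defines the treatment, is:
Chadl duplex: ACAAGGUAGAGAAACAAAGAGACCA

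In the canonical branch of the pathway, a Wnt ligand joins a Frizzled receptor to the co-receptor Lrp5 or Lrp6, beta-catenin (Ctnnb1) is spared from the Axin destruction complex, and it drives target genes with Tcf and Lef factors. R-spondins strengthen the signal by keeping Frizzled receptors at the surface, while Sfrp proteins and Wif1 bind the ligands and Dkk1 and sclerostin (Sost) block the co-receptors. Ligands such as Wnt5a act largely without beta-catenin, through Ror receptors and Frizzleds, on cell polarity and movement. In cartilage, canonical signalling restrains the start of chondrocyte differentiation and promotes the later steps towards hypertrophy and bone.

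The log2 signal of Chadl itself was 4.29 and 4.64 in knockdown, against 4.91 and 4.84 in control. The groups did not overlap, and the difference of -0.41 (SE 0.12) did not pass the test over all probe sets (limma adjusted p = 0.608). Of 12 chondrocyte markers, 7 lay at or above the median signal of all probe sets (4.24), among them Sox9, Col2a1 and Acan, and 5 lay below it (Col9a2, Matn1, Matn3, Comp and Chad). Markers of skeletal muscle, endothelium and blood cells lay mostly below that median, in 14 of 19 cases. The SD of the log2 difference between arrays, over probe sets at or above the median signal, was 0.22 between the knockdown arrays and 0.10 between the controls.

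Among the larger differences in the pathway was a higher signal in knockdown of the agonist Rspo2 (1.69-fold). The non-canonical ligand Wnt5a was higher too (1.45-fold and 1.39-fold by its 2 probe sets). The receptors Fzd2 (1.31-fold at most) and Ror1 (1.24-fold) were higher, and the antagonist Wif1 was lower (1.52-fold). Dkk3, of an antagonist family, was also higher (1.26-fold by its brighter probe set), mostly in knockdown 1. Ctnnb1 (1.23-fold at most) and Nkd2 (1.22-fold at most) had a lower mean, through knockdown 1. None of them passed the test. Over all 45037 probe sets 1 passed an adjusted p of 0.05 (0.00222%) and over the members 0 of 89 did, with limma and in each of the other settings that kept all 4 arrays. At an unadjusted p of 0.05 there were 10 member probe sets, or 11.2%, beside 7.26% of all probe sets. Of them 8 were higher and 2 lower, in directions that held 3.42% and 3.83% of all probe sets. At or above the median signal they were 8 of 46 members (17.4%), beside 9.25% of all probe sets at that level. Those 10 come from 8 genes, since Wnt5a and Fzd2 are counted by 2 probe sets each.

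Among member probe sets 18 were without overlap on the higher side (each knockdown array above each control) and 15 on the lower side, beside 18.6% and 19.9% of all probe sets. These were 20.2% and 16.9% of the members, shares near the background. The 46 members at or above the median signal held 13 above (28.3%) and 6 below (13.0%), where all probe sets at that level held 20.1% and 21.0%. A log2 difference of 0.3 or more in size was seen for 7 of these 46 (15.2%), beside 4.47% of all probe sets at that level. Their median difference was 0.01, and that of all probe sets at or above the median signal was -0.0031. When knockdown 1 was left out 9 members (10.1%) passed in limma, beside 3.71% of all probe sets. When knockdown 2 was left out 20 (22.5%) passed, beside 12.8% of all probe sets. In these fits the spread comes from the control pair alone, and the single knockdown array is assumed to vary as the controls do.

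**Figure D1:**
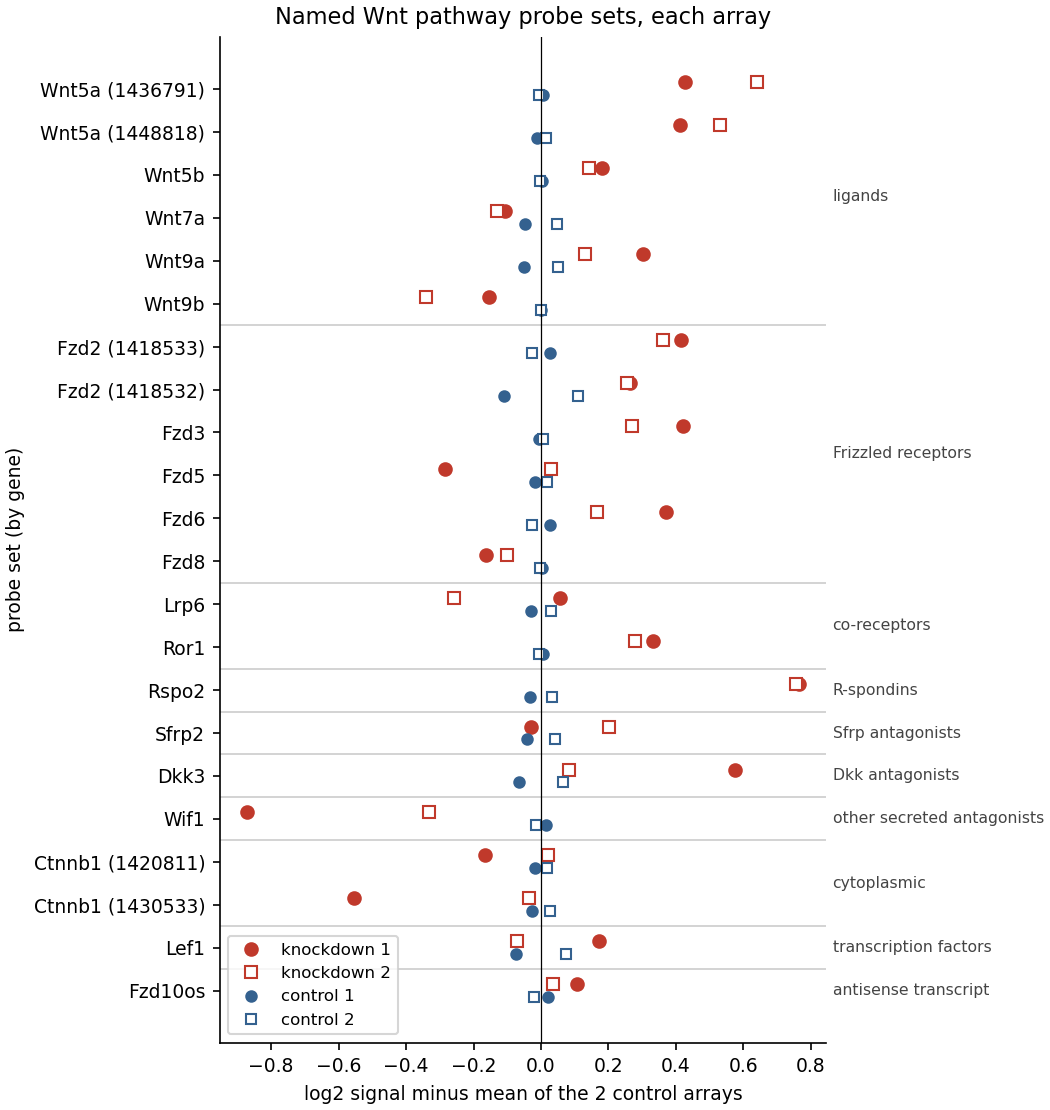
Log2 signal minus the control mean (x axis) for the 22 named probe sets, grouped by role, with knockdown arrays in red and control arrays in blue. Both knockdown arrays lie to the right of both controls for Rspo2, both probe sets of Wnt5a and Ror1, and to the left for Wif1, where knockdown 1 lies 0.87 and knockdown 2 lies 0.33 below the control mean.

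The promoters in the RefSeq table, GRCm38.p6, were examined for 36 member genes, among which Rspo2, Wnt5a and Fzd2 are not, read as the 250 bases before the start. The Tcf and Lef core motif, searched as CTTTGAA and CTTTGAT on both strands, occurred in 3 of 43 member promoters, or 6.98%, and in 7.48% of all 32851 promoters. It was found once each in a promoter of Dkk1, of Wnt11 and of Wnt5b, a description of letters and not of a working site. Member promoters were richer in G and C, with a median of 66.8% against 52.4% in all promoters. The promoters of Wif1, which was lower in both knockdown arrays, of Ror1, which was higher in both, and of Dkk1, which holds the motif (capitals), are shown 5′ to 3′ to set genes of different behaviour side by side. They lie at chr10:121033754-121034003 on the plus strand, chr4:100095541-100095790 on the plus strand and chr19:30549497-30549746 on the minus strand. In Dkk1 the motif begins 117 bases before the start.
Wif1: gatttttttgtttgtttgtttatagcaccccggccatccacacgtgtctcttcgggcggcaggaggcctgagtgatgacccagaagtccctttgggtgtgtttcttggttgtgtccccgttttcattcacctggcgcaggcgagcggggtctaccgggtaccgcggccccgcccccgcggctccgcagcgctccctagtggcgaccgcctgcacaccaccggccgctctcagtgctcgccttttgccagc
Ror1: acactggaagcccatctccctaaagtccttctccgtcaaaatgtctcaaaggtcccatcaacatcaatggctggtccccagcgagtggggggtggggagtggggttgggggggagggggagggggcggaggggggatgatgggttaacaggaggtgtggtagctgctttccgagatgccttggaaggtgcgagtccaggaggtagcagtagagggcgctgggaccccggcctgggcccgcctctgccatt
Dkk1: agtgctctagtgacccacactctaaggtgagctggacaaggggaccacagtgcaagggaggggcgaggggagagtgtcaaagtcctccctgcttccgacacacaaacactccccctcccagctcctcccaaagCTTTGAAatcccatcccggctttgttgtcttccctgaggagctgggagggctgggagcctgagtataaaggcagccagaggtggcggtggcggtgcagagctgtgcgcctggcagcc

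Among the ligands, Wnt5a stood out from the other 18 genes. Its probe set 1436791_PM_at read 8.02 and 8.24 in the knockdown arrays, against 7.60 and 7.59 in the controls. The groups did not overlap, and knockdown 2 was the higher of its pair (log2 difference 0.53, SE 0.09, 95% confidence interval 0.33 to 0.73, unadjusted p = 0.000359, limma adjusted p = 0.414). The second probe set, 1448818_PM_at, read 6.86 and 6.98 in knockdown and 6.44 and 6.46 in control, a difference of 0.47 (SE 0.08, limma adjusted p = 0.415). Both probe sets thus placed both knockdown arrays above both controls.

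Other ligands differed less. Wnt5b, a relative of Wnt5a known from growth plate chondrocytes, read 4.55 and 4.52 in knockdown and 4.37 and 4.37 in control by 1 probe set (difference 0.16), whose suffix marks probes that can also bind other transcripts, and its dimmer probe set differed by 0.02. Wnt9a, known for its part in joint formation, read 4.88 and 4.71 in knockdown and 4.53 and 4.63 in control (difference 0.22, SE 0.10). Both are cases of no overlap that did not pass, and the dim second probe set of Wnt9a differed by -0.10, the opposite sign. Wnt7a, which patterns the back of the limb, read 4.65 and 4.62 in knockdown and 4.71 and 4.80 in control (difference -0.12). Wnt9b, a ligand of kidney tubule formation, had a dim probe set (32.3th percentile), with 3.73 and 3.55 in knockdown and 3.89 and 3.89 in control (difference -0.25, unadjusted p = 0.0253, limma adjusted p = 0.648). The other probe sets of Wnt7a (0.05) and Wnt9b (0.06) differed the opposite way.

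The 22 remaining ligand probe sets, of 18 genes, differed by -0.10 to 0.22, and 0 of them had an unadjusted p under 0.05. Only 4 of the 22 reached the median signal, and 11 ligand genes had no probe set at that level: Wnt1, Wnt2, Wnt2b, Wnt3, Wnt3a, Wnt8a, Wnt8b, Wnt9b, Wnt10a, Wnt11 and Wnt16. Array signal compresses changes of dim probe sets, so small differences there say little. The 4 at that level were Wnt4 (-0.03), Wnt6 (0.06), Wnt7b (0.02) and Wnt10b (0.09), picked out after their values were seen, and their arrays overlapped between groups.

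Of the Frizzled receptors, 4 of 21 probe sets (19.0%) reached an unadjusted p of 0.05, all on the higher side. Of all probe sets 7.26% did so in either direction and 3.42% on that side. The Frizzled probe sets concerned belong to Fzd2, which is counted more than once, Fzd3 and Fzd6. Fzd2, a receptor for Wnt5a among others, read 6.47 and 6.42 in knockdown and 6.08 and 6.03 in control by probe set 1418533_PM_s_at (difference 0.39, SE 0.08, unadjusted p = 0.00192, limma adjusted p = 0.444). By 1418532_PM_at it read 5.92 and 5.91 in knockdown and 5.55 and 5.77 in control (difference 0.26, SE 0.10). The third, 1418534_PM_at, gave 5.90 and 6.25 in knockdown and 5.82 and 5.92 in control, where knockdown 1 lay between the controls. All 3 probe sets of Fzd2 thus had a higher mean in knockdown, and 2 of them had no overlap.

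Fzd6, a receptor of planar cell polarity, read 6.68 and 6.47 in knockdown and 6.33 and 6.28 in control (difference 0.27, SE 0.10, limma adjusted p = 0.648). No overlap was seen there, while its dim second probe set differed by -0.08. For Fzd3, which acts with planar polarity proteins in axon guidance, 6 probe sets differed by -0.0032 to 0.35. The one at the top of that range, 1420087_PM_at, read 3.66 and 3.51 in knockdown and 3.24 and 3.25 in control, at the 17.6th percentile of signal (limma adjusted p = 0.488). The other 5 did not reach an unadjusted p of 0.05, and 1 of them had a mean below control.

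Fzd8 was lower in both knockdown arrays by a small amount, at 6.28 and 6.34 in knockdown and 6.44 and 6.43 in control (difference -0.13, SE 0.08). Fzd5 read 7.72 and 8.03 in knockdown and 7.99 and 8.02 in control, with knockdown 1 alone below the controls. The 15 remaining Frizzled probe sets, of 9 genes, differed by -0.21 to 0.21. Of the 10 Frizzled genes, only Fzd4 had no probe set at the median signal or above. Both probe sets of Fzd10os overlapped the zero line in their intervals, and the one at that level read 4.53 and 4.46 in knockdown and 4.44 and 4.40 in control.

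Among co-receptors, Ror1, a receptor tyrosine kinase-like protein that binds Wnt5a, read 5.09 and 5.04 in knockdown and 4.77 and 4.76 in control. The arrays of each group lay close together and apart from the other group (difference 0.31, SE 0.08, 95% confidence interval 0.11 to 0.50, unadjusted p = 0.00743, limma adjusted p = 0.569). A second Ror1 probe set at the 2.45th percentile differed by -0.04. Ror2, its closest relative, read 5.44 and 5.46 in knockdown and 5.46 and 5.39 in control, and differed by 0.02. Lrp6, a co-receptor of the canonical branch, read 6.85 and 6.54 in knockdown and 6.77 and 6.82 in control, with only knockdown 2 below the controls. Lrp5, the other, was dim (difference -0.12). The values of Ror2 and Lrp5 are given for comparison within the family and were picked after they were seen.

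**Figure D2:**
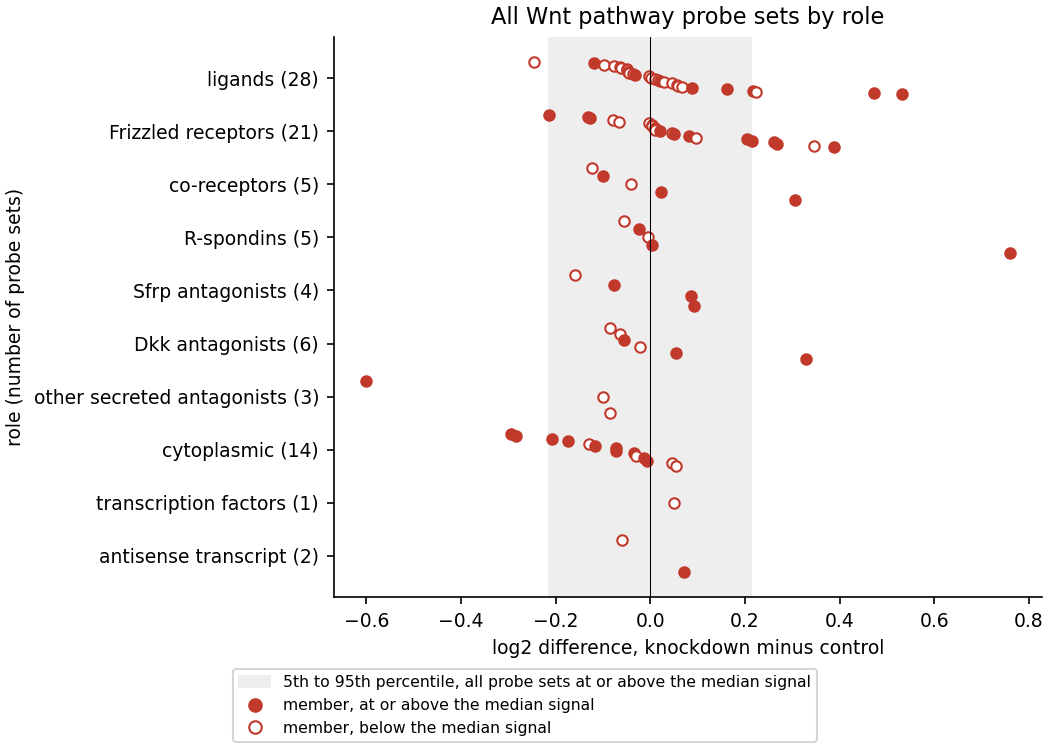
Log2 difference of knockdown minus control (x axis) for all 89 member probe sets by role, filled where the signal is at or above the median, with the 5th to 95th percentile of all probe sets at that level shaded (-0.21 to 0.21). To the right of the shading lie 10 filled points, among them Rspo2 (0.76), and to the left lie 3, among them Wif1 (-0.60).

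Rspo2, an R-spondin needed for limb and lung development, was the member with the smallest unadjusted p. It read 6.09 and 6.08 in the knockdown arrays, against 5.29 and 5.36 in the controls. The knockdown arrays agreed within 0.01 and both lay well above the controls (difference 0.76, SE 0.08, 95% confidence interval 0.56 to 0.96, unadjusted p = 3.18e-05, limma adjusted p = 0.179). It is read by 1 probe set. The other 3 R-spondin genes gave no such difference: their 4 probe sets differed by -0.06 to 0.0044, and Rspo1 and Rspo4 were dim. Rspo3 by its brighter probe set read 5.00 and 5.59 in knockdown and 5.47 and 5.18 in control, a wide spread in both groups.

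Secreted antagonists differed in sign. Wif1, the Wnt inhibitory factor, read 7.42 and 7.96 in knockdown, against 8.30 and 8.27 in control. Both knockdown arrays lay below both controls, knockdown 1 by 0.87 and knockdown 2 by 0.33 from the control mean (difference -0.60, SE 0.15, 95% confidence interval -0.96 to -0.24, unadjusted p = 0.00545, limma adjusted p = 0.535). Dkk3, a divergent member of its family, read 5.39 and 4.90 in knockdown and 4.75 and 4.88 in control. The groups did not overlap, but most of that difference of 0.33 (SE 0.16) lay in knockdown 1. Sfrp2 read 7.80 and 8.03 in knockdown and 7.79 and 7.87 in control, where the groups overlapped.

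The remaining antagonists differed less. The 3 other Sfrp probe sets differed by -0.16 to 0.09, all without overlap: 1 of Sfrp1 was higher and 2 of Sfrp5 were lower. Over all probe sets 18.6% were higher and 19.9% lower in this way. The 5 other Dkk probe sets differed by -0.08 to 0.05 and overlapped between groups. The 2 dim Sost probe sets differed by -0.10 and -0.09, the first of them without overlap. Dkk1, whose promoter is printed above, read 4.81 and 4.71 in knockdown and 4.95 and 4.68 in control by the probe set above the median. The Dkk1 values overlapped, and neither the Sfrp nor the Dkk family had a member with an unadjusted p under 0.05.

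Inside the cell, the 14 probe sets of Axin1, Axin2, Ctnnb1, Nkd1 and Nkd2 held 0 without overlap on the higher side and 2 (14.3%) on the lower side, beside 18.6% and 19.9% of all probe sets. Their 10 at or above the median signal had a median difference of -0.09. That median was -0.22 in knockdown 1 and 0.0040 in knockdown 2. Beta-catenin (Ctnnb1) by probe set 1420811_PM_a_at read 11.78 and 11.96 in knockdown and 11.92 and 11.96 in control. By 1430533_PM_a_at it read 7.57 and 8.08 in knockdown and 8.09 and 8.14 in control (difference -0.29, SE 0.15, limma adjusted p = 0.716), and by 1450008_PM_a_at 10.32 and 10.63 in knockdown and 10.57 and 10.62 in control. In all 3 probe sets knockdown 1 was the lowest array, and in 2 of the 3 knockdown 2 lay within 0.04 above the control mean.

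The same split between the knockdown arrays was seen in 2 feedback inhibitors that the canonical pathway induces, picked after their values were seen. Axin2, widely used as a readout of beta-catenin activity, read 4.51 and 4.98 in knockdown and 5.03 and 4.88 in control. Nkd2 read 4.66 and 5.10 in knockdown and 5.03 and 5.08 in control by 1 probe set, and 4.06 and 4.80 in knockdown and 4.66 and 4.77 in control by another. Knockdown 1 was below both controls and knockdown 2 above their mean in each case, and none reached an unadjusted p of 0.05. Fzd9, picked in the same way, read 5.44 and 6.34 in knockdown and 6.12 and 6.09 in control. Nkd1, a relative of Nkd2, had 4 probe sets with differences of -0.07 to 0.05, and Axin1, the constant scaffold of the destruction complex, differed by -0.01 in both of its probe sets. Lef1, the transcription factor, was dim (8.23th percentile), with 3.27 and 3.03 in knockdown and 3.03 and 3.18 in control.

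**Figure D3:**
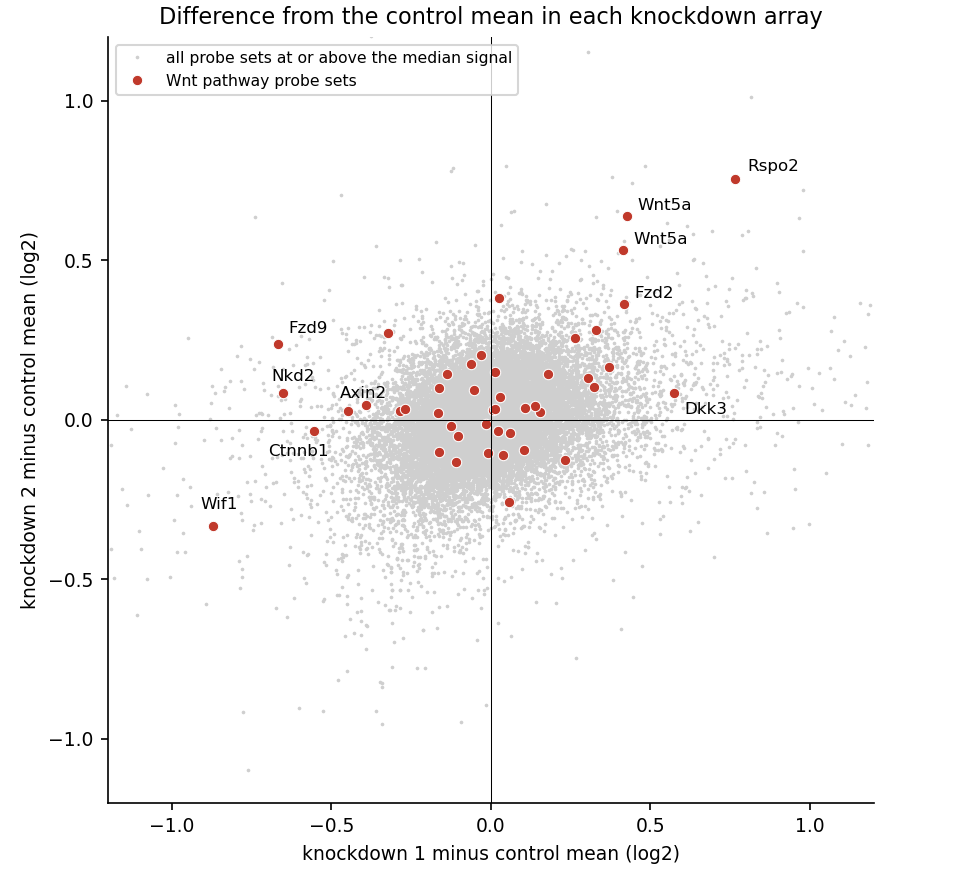
Log2 difference from the control mean in knockdown 1 (x axis) and knockdown 2 (y axis) for the 46 member probe sets at or above the median signal (red) over all 22519 such probe sets (grey), 62 of which lie beyond the axes. Rspo2, both probe sets of Wnt5a and 1 of Fzd2 lie at upper right, Wif1 at lower left, and Nkd2, Axin2, Ctnnb1 and Fzd9 far to the left with small or positive values in knockdown 2.

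The gap between the knockdown arrays was larger than that between the controls for 66 of 89 members (74.2%), and for 61.4% of all probe sets. The gap was 0.0099 for Rspo2, 0.051 for the brighter Ror1 probe set, and 0.054, 0.0091 and 0.36 for the Fzd2 probe sets. It was 0.54 for Wif1, 0.49 for the brighter Dkk3 probe set and 0.19 to 0.52 for Ctnnb1.

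Marker lists also differed between these arrays. Of 6 osteoblast markers, 5 were lower without overlap and 0 higher, beside 17.1% of all genes lower and 21.2% higher, and their summed linear signal was 1262 and 1794 in the knockdown arrays and 2519 and 2555 in the controls, lowest in knockdown 1 as for Wif1. Their part in the difference of Wif1 was not tested. The 12 chondrocyte markers summed to 1527 and 1932 in knockdown and 1736 and 1789 in control, with knockdown 1 below and knockdown 2 above both controls. Singly, 1 of them was higher and 3 were lower without overlap, and the 7 at or above the median signal had a median difference of -0.26 (-0.42 in knockdown 1 and -0.0087 in knockdown 2). Their part in the lower values of Axin2, Nkd2 and Ctnnb1 in knockdown 1 was not tested. Of 15 interferon and double-stranded RNA response genes, 13 (86.7%) were higher without overlap and 0 lower, beside the same 21.2% and 17.1% of all genes, with sums of 10336 and 9697 in knockdown and 8444 and 8519 in control. Their part in the higher signal of Rspo2, Wnt5a, Fzd2 and Ror1 was not tested. Adipocyte markers, of which 4 were measured, summed to 214 and 160.0 in knockdown and 175 and 159 in control. Sums for skeletal muscle (114 to 115 in knockdown, 116 to 117 in control), endothelium (83.1 to 83.5 in knockdown, 78.4 to 80.9 in control) and blood cells (87.3 to 101 in knockdown, 90.4 to 98.2 in control) varied less.

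Other genes of the pathway, from lists of its further parts, gave 0 passing of 114 measured, each read by its brightest probe set. At an unadjusted p of 0.05 there were 13 in limma, or 11.4%, beside 6.95% of all genes read in this way. Of these 6 were higher and 7 lower, where 4.4% and 2.56% of all genes were. All 13 lay at or above the median signal, as did 96 of the 114 (84.2%). Such p-values were commoner there, for 9.25% of probe sets at that level and 7.26% of all. The shares of all genes given here were not matched for signal. No overlap was seen for 19 on the higher side (16.7%) and for 22 on the lower side (19.3%), beside 21.2% and 17.1% of all genes. These shares are close to the background. Without knockdown 1, 11 of the 114 (9.65%) passed in limma, beside 4.21% of all genes. Without knockdown 2, 31 (27.2%) passed, beside 15.4% of all genes.

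Outside the name rule, further secreted modulators included some of the larger differences. Cthrc1, a secreted glycoprotein that binds Wnts, Frizzleds and Ror2 and favours the polarity branch, read 7.15 and 7.10 in knockdown and 6.49 and 6.54 in control (difference 0.61, unadjusted p = 8.78e-05, limma adjusted p = 0.284). Frzb, a secreted Frizzled-related antagonist of cartilage, read 4.90 and 5.84 in knockdown and 6.01 and 6.10 in control (difference -0.69, limma adjusted p = 0.666). As for Wif1, both knockdown arrays lay below both controls and most of the difference was in knockdown 1. Bambi, a decoy receptor of TGF-beta signalling and a Wnt target, differed by -0.38, and the membrane protein gene Tpbg by 0.28. Of the 3 Tpbg probe sets, 1 dim one was lower. Of 10 genes in this list 2 were above and 3 below without overlap, beside 21.2% and 17.1% of all genes.

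At the membrane, Lrp4, a receptor of sclerostin and Dkk1, read 6.90 and 7.51 in knockdown and 7.80 and 7.93 in control (difference -0.66, unadjusted p = 0.00684, limma adjusted p = 0.569). Gpc4, a heparan sulphate proteoglycan that binds Wnts, read 8.46 and 7.91 in knockdown and 7.80 and 7.80 in control (difference 0.38, limma adjusted p = 0.681). Lrp4 was lower and Gpc4 higher in both knockdown arrays, each most in knockdown 1. The R-spondin receptor gene Lgr6 differed by 0.04. Lgr4 and Lgr5, named after their values were seen, differed by 0.05 and 0.02, and the arrays of both overlapped between groups. Of the 4 genes of ligand making and release, 0 were without overlap, and the ligand carrier gene Wls read 9.63 and 9.71 in knockdown and 9.65 and 9.72 in control.

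**Figure D4:**
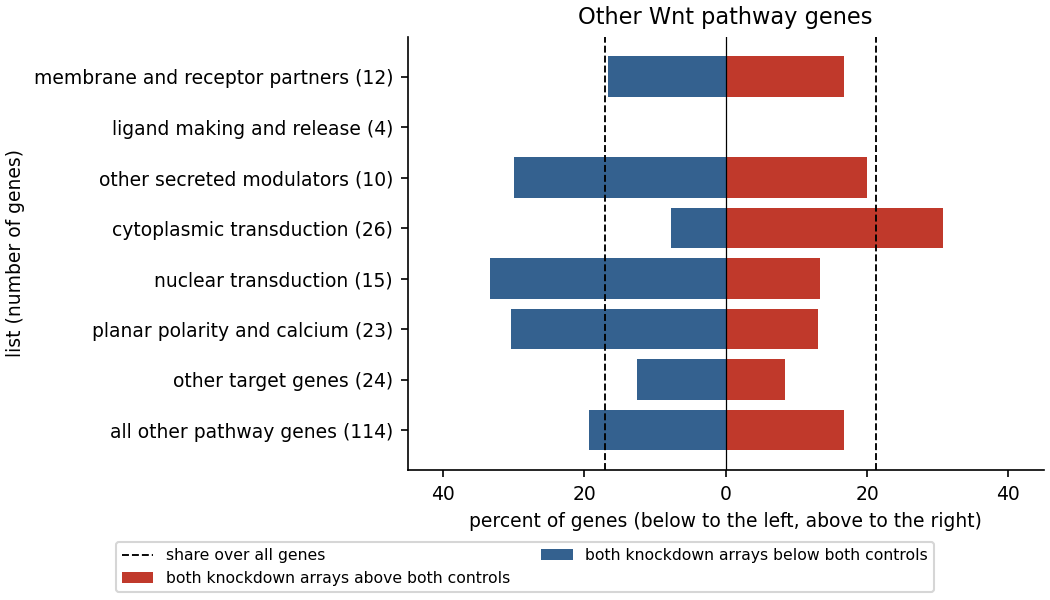
Percent of the measured genes of each further Wnt list with both knockdown arrays above both controls (red, to the right) or below both (blue, to the left), with the shares over all genes as dashed lines (21.2% and 17.1%). The list of all 114 genes lies near both lines.

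In the cytoplasm 8 of 26 genes (30.8%) were higher without overlap and 2 (7.69%) lower, beside 21.2% and 17.1% of all genes. An unadjusted p under 0.05 in limma was reached by 0 of the 26, beside 6.95% of all genes. Apc, the scaffold of the destruction complex, differed by 0.13 and the kinase gene Csnk1d by 0.09. The tankyrase gene Tnks2 differed by 0.11 and Dact2 by 0.12, the last with its probe sets at or above the median of opposite sign. Apc and Tnks2 each had 1 dim probe set of opposite sign. In the nucleus 2 of 15 (13.3%) were above and 5 (33.3%) below, against the same shares of all genes. The co-activator gene of beta-catenin Bcl9l read 6.44 and 6.48 in knockdown and 6.67 and 6.81 in control (difference -0.28, unadjusted p = 0.0136, limma adjusted p = 0.611), with 2 dimmer probe sets of opposite sign. Crebbp differed by -0.24, Tle1 by -0.16 and Ctbp2 by -0.09.

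The polarity and calcium branch held 3 of 23 genes (13.0%) above and 7 (30.4%) below, beside 21.2% and 17.1% of all genes. Ppp3ca, the catalytic subunit of calcineurin, read 9.84 and 9.74 in knockdown and 9.58 and 9.58 in control (difference 0.21, limma adjusted p = 0.488). Prickle1, a planar polarity protein gene, differed by 0.19. Prkca, which encodes protein kinase C alpha, differed by -0.21 and Camk2a by -0.20, each with probe sets at or above the median of opposite sign. Among 24 further target genes 2 (8.33%) were above and 3 (12.5%) below, both under the shares of all genes. The matrix proteoglycan gene Vcan read 7.31 and 7.04 in knockdown and 6.65 and 6.61 in control (difference 0.55, limma adjusted p = 0.415). Of its 5 probe sets 3 were higher, and the 2 lower ones were dim. The AP-1 gene Jun differed by 0.28. The hyaluronan receptor gene Cd44 read 9.56 and 9.81 in knockdown and 9.93 and 9.97 in control (difference -0.27, limma adjusted p = 0.596). Id2 differed by -0.13, with 1 dim probe set of opposite sign. Myc and Ccnd1, widely used target genes named after their values were seen, differed by 0.05 and 0.24, and the Ccnd1 arrays overlapped (8.51 and 7.92 in knockdown, 7.98 and 7.96 in control).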

How the data were processed

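The deposited table holds a log2 signal for each probe set after RMA, which the submitters' processing notes name. This method removes background, equalises arrays and summarises probes, so differences in total RNA are removed and changes of dim genes are compressed. No software version was stated in the sources used here, and the log base was read from the range of 2.17 to 12.72. Precision is limited by 2 arrays per group. Nothing in the labels, which speak of biological replicates, says that they came from separate cultures, so the p-values may reflect technical spread only.

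Of 45141 probe sets, 104 array controls were left out and 45037 were tested, knockdown against control, in limma (version 3.58.1, R 4.3.3) by lmFit and trended eBayes, with 2 residual and 5.32 prior degrees of freedom. P-values are two-sided and adjusted by Benjamini-Hochberg over all of them, with a threshold of 0.05 and no filter. By the platform annotation, which can be old, 28898 probe sets carried 1 symbol, 551 several and 15588 none. The median of mean signal was 4.24. Members and lists were chosen with earlier results of these data known, and no list was tested.

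Members were named with all arrays where they reached the median signal without overlap and differed by 0.1 or more, differed by 0.5 or more, had an unadjusted p under 0.05 or were the brightest of their role. From each further list came up to 4 genes at or above the median without overlap, by unadjusted p, or the brightest. The fit was tested on simulated data with known changes, drawn with equal spread in both groups. The knockdown pair here was wider than the control pair (SD 0.22 against 0.10). The simulation therefore does not show how many true changes would be found in these arrays. Alternatives were quantile normalization, median centring, leaving out probe sets below the 40th percentile, 1 probe set a gene, eBayes without trend or robust, the replicate number as a block, an adjusted p of 0.1 and leaving out each array.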

Additional observations from a re-analysis of the deposited data

How the results depend on the processing

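With all 4 arrays, 0 members and 0 further pathway genes passed in limma under each alternative run, and at an adjusted p of 0.1 also 0 members. The count of all probe sets that passed was 1, and it was 0 with 1 probe set a gene, 0 without the trend, 3 with robust eBayes, 2 with the replicate block and 3 at an adjusted p of 0.1. Leaving out single arrays gave 0 to 5749. It gave 0 to 20 member probe sets, the high counts coming without a knockdown array, and 0 to 31 further pathway genes. Members at an unadjusted p of 0.05 were 10, beside 7.26% of all probe sets. With 1 probe set a gene, where 53 probe sets stand for the members, they were 6, beside 6.67% of all those kept. They ranged from 6 to 26 without single arrays. The share of all probe sets at that threshold moved in the same direction, up without a knockdown array and down without a control array. This range is thus not specific to the members. The median difference of members at or above the median signal ranged from 0.013 to 0.045, the highest without knockdown 1.

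The sign of the 22 named probe sets held in each of the 146 values computed with 4 arrays. Of these probe sets 3 had no value without dim probe sets and 5 had none with 1 probe set a gene. Among these settings only quantile normalization and median centring could move a difference. The other settings change the test or the set of probe sets, so the sign was fixed there. Without single arrays it turned for Ctnnb1 1420811_PM_a_at (-0.17 to 0.022) and Fzd5 (-0.29 to 0.029), positive without knockdown 1, for Lef1 (-0.071 to 0.17), negative without knockdown 1 or control 1 (-0.023), and without knockdown 2 for Lrp6 (-0.26 to 0.056) and Sfrp2 (-0.030 to 0.20). Without knockdown 1 the difference of Wif1 was -0.33, and without knockdown 2 it was -0.87.

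Same-numbered arrays did not deviate together (r = 0.01 over 45037 probe sets). With 2 arrays a group, this cannot show whether they share a culture or batch. With the replicate block in limma 11 members reached an unadjusted p of 0.05, beside 7.17% of all probe sets. Dim probe sets, 43 of 89 members, could show little change.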
